A study of Mus musculus with 4 samples.

Results

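The genes described here are those that encode the protein subunits of the cytosolic ribosome, together with every gene whose exons overlap theirs on the opposite strand. Protein-coding genes were taken by symbol (Rpl or Rps followed by a number, Rplp0 to Rplp2, and Rpsa), leaving out the kinase genes named Rps6k. This gave 84 ribosomal protein genes, 52 of the large subunit and 32 of the small, of which 17 had an exon of another gene on the opposite strand and 67 had none. The 17 genes faced 19 opposite genes, here called partners, in 19 pairs, so 103 of the 50600 genes listed were members. The whole list held 4597 pairs of genes with opposite exons.

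RNA was sequenced from 4 mouse T-helper 2 (Th2) samples, primary CD4 T cells of strain C57BL/6NJ that were differentiated in culture. They form 1 group with no genetic change or added treatment named in the labels, so comparisons were made between genes within a library and between the 4 libraries, called replicates 1 to 4. Sex was not collected, age is unknown, and the labels give all 4 samples the same donor identifier, so a p-value here speaks only of the spread between 4 samples, and that spread may be technical. The assay is labelled as total RNA-seq, the library protocol is named for poly(A) RNA, and a time of 16 hours appears only in the file headers.

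The ribosome reads messenger RNA and joins amino acids into protein. Its small subunit holds the messenger RNA and its large subunit forms the peptide bonds, and each is built from ribosomal RNA and many different proteins that are needed in matched amounts. Many ribosomal protein messenger RNAs begin with a tract of pyrimidines through which their translation is tied to growth signals, and activated T cells are known to make many new ribosomes as they grow and divide.

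Total counts were 1688658, 1705096, 2222583 and 1881293 in replicates 1 to 4. All 10 T cell markers had counts in all 4 libraries, at a median of 12.9 TPM, a level scaled for gene length and library size that was computed here from the counts. The highest were Cd247, which lies opposite Pou2f1, at 167 ± 8.24 and Trac at 22.4 ± 8.29 TPM (SD, n = 4). Of 6 Th2 markers, 4 had counts in all 4 libraries, led by Ptgdr2, which lies opposite Ccdc86, at 57.3 ± 9.10 and Ccr4 at 10.8 ± 2.49 TPM (SD, n = 4), and Il5 and Il13 had none. Of 16 markers of other cells, 12 were at 0 throughout, and the summed level of the list, 145 to 179 TPM, came mostly from Csf1r, which lies opposite Hmgxb3 and was at 155 ± 14.5 TPM (SD, n = 4). The B cell marker Cd79a, at 8.09 ± 2.20 TPM, and the CD8 T cell marker Cd8b1, at 3.92 ± 2.29 TPM (SD, n = 4), also had counts in all 4 libraries and have no opposite exon. A gene at 0 in a library could hold up to 3 counts, a limit that covers counting error only, as do the intervals given with shares.

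In 4 pairs a partner exon lay across protein-coding bases of the ribosomal protein messenger RNA, and these 4 partners were all counted more often than the gene they faced. The coding stretches that faced the partner are shown for Rpl22l1 and Rpl23a, in the direction of the ribosomal protein messenger RNA, because they show which part of each protein is encoded opposite an exon. The sequences are those of GENCODE release M21 transcripts, and capitals mark bases that face a partner exon. In Rpl22l1, 124 of 366 coding bases faced Gm33051, at chr3:28807205-28807328 (mm10, gene on the plus strand). In Rpl23a, 259 of 468 coding bases, or 55.3%, faced Tlcd1, from chr11:78180986-78181593 with introns left out (minus strand).
Rpl22l1 facing Gm33051: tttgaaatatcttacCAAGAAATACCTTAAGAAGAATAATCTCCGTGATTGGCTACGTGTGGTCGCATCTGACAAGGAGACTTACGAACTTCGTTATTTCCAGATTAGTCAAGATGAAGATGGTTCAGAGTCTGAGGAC
Rpl23a facing Tlcd1: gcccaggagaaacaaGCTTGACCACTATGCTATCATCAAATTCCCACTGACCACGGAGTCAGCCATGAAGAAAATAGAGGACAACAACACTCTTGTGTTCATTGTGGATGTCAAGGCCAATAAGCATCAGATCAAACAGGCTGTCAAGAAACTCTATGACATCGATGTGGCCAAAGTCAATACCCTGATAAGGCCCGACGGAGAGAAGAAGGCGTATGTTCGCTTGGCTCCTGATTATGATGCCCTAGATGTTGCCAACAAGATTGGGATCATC
Both faced stretches ran to the last codon. In Rpl35, 105 of 369 coding bases faced Wdr38, in 2 places that include the first codon.

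**Figure D1:**
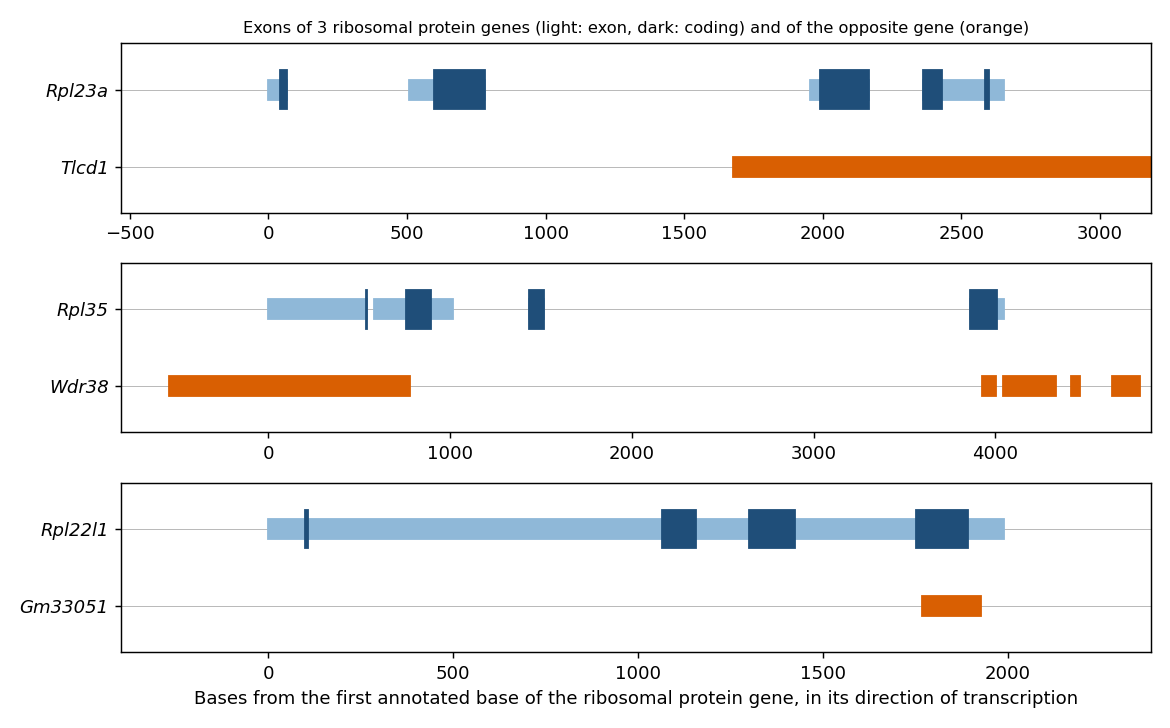
Exons of Rpl23a, Rpl35 and Rpl22l1 (light blue, coding parts dark blue) above the exons of the partner on the opposite strand (orange), in bases from the first annotated base of the ribosomal protein gene. Partner exons beyond the frame are not drawn. Tlcd1 covers the end of Rpl23a with 1 merged exon, Wdr38 crosses Rpl35 in separate exons, and the exon of Gm33051 that is drawn lies across the end of the Rpl22l1 coding sequence.

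Among the genes in pairs whose 5′ ends overlap, the RefSeq start is shown for the 4 that begin with a run of pyrimidines. It lies inside the span counted for the gene, so each window ends short of the partner whose 5′ end overlaps that of the gene. The Rpl35 window still lies wholly opposite an exon of Wdr38, the other partner of Rpl35. These windows hold 60 bases before and 20 bases from the RefSeq start (build GRCm38.p6), on the strand of the gene, and capitals mark an unbroken run of 6 or more C or T that covers the first base. The windows are those of Rpl15 (chr14:18270967-18271046, minus strand), Rpl35 (chr2:39005112-39005191, minus strand), Rps10 (chr17:27635225-27635304, minus strand) and Rps18 (chr17:33955646-33955725, minus strand).
Rpl15 start: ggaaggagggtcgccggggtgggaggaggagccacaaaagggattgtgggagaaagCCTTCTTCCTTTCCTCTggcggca
Rpl35 start: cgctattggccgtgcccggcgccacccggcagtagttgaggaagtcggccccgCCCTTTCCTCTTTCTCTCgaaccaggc
Rps10 start: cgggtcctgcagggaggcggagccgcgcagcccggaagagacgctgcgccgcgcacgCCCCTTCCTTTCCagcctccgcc
Rps18 start: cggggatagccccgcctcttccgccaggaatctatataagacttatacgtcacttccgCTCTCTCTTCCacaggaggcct
The runs were 17, 18, 13 and 11 bases long in Rpl15, Rpl35, Rps10 and Rps18. The windows of Rpl12, Rpl18 and Rps25, whose 5′ ends also overlap a partner, had none. Such a run covered the annotated first base of 19 of the 64 ribosomal protein genes with a RefSeq promoter window, 29.7%, against 2293 of all 27025 genes with a window, 8.49%, and 0 of 12 partners. This is a description of these letters at 1 annotated position, on the gene's own strand.

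The ribosomal protein genes held 0.656 ± 0.147% of the counts (SD, n = 4), and their 19 partners held 3.41 ± 0.126%. The partners' share was 3.48, 3.49, 3.44 and 3.22% in replicates 1 to 4, with 95% Wilson intervals from 3.19 to 3.52% over the 4 libraries. The 17 genes they faced held 0.204, 0.191, 0.161 and 0.228%. The partners' share was above that of the genes they faced in every library, with no overlap. Summed as counts per kilobase of exon, the log2 ratio of partners to the genes they faced was 4.55, 4.73, 4.94 and 4.31, a mean of 4.63 ± 0.27 (SD, n = 4), or 24.8-fold. In an exact two-sided sign-flip permutation test over the 4 libraries, 2 of the 16 sign patterns were as extreme, the fewest possible, so a p of 0.05 could not be reached. A sum per kilobase can rest on a few short or high genes, so this fold is not that of a typical pair. It includes the pair that is not described here. Tlcd1 and Wdr38 alone held 45.0 ± 2.06% of the partner counts (SD, n = 4), a share of counts and not of the sum per kilobase.

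Within pairs, the gene with more counts per kilobase differed from pair to pair. The partner was higher in 8 pairs and the ribosomal protein gene in 10, in an edgeR quasi-likelihood test within libraries at an adjusted p of 0.05 over all 2887 pairs with 40 or more counts. Over all those pairs, 93.5% were called in either direction, so 18 calls among 19 are near the background. Seen from a protein-coding gene, the partner was higher in 61.0% and the gene in 31.7% of 3908 cases. A pair of protein-coding genes enters these cases from each side, so it adds equally to both percentages. The pairs described here are seen from the ribosomal protein gene only, so these percentages give no background for the 8 and 10 pairs. Reads of a gene and of its partner are told apart by strand only, through strand option 1 of the counting program. Whether that option takes the strand of the transcripts was not tested, so every level and order given here is that of the strand counted. On that strand, the 42411 genes without an opposite exon, of 50600 listed, held 8.17 ± 1.35% of the counts (SD, n = 4). If it took the other strand, the counts listed for a partner would be reads of the gene it faces and the reverse, the direction of each pair and of the summed ratio would turn, and the levels of genes without an opposite exon would be those of reads antisense to them. The tables give 1 count per gene, so where inside a partner its reads lay was not measured.

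**Figure D2:**
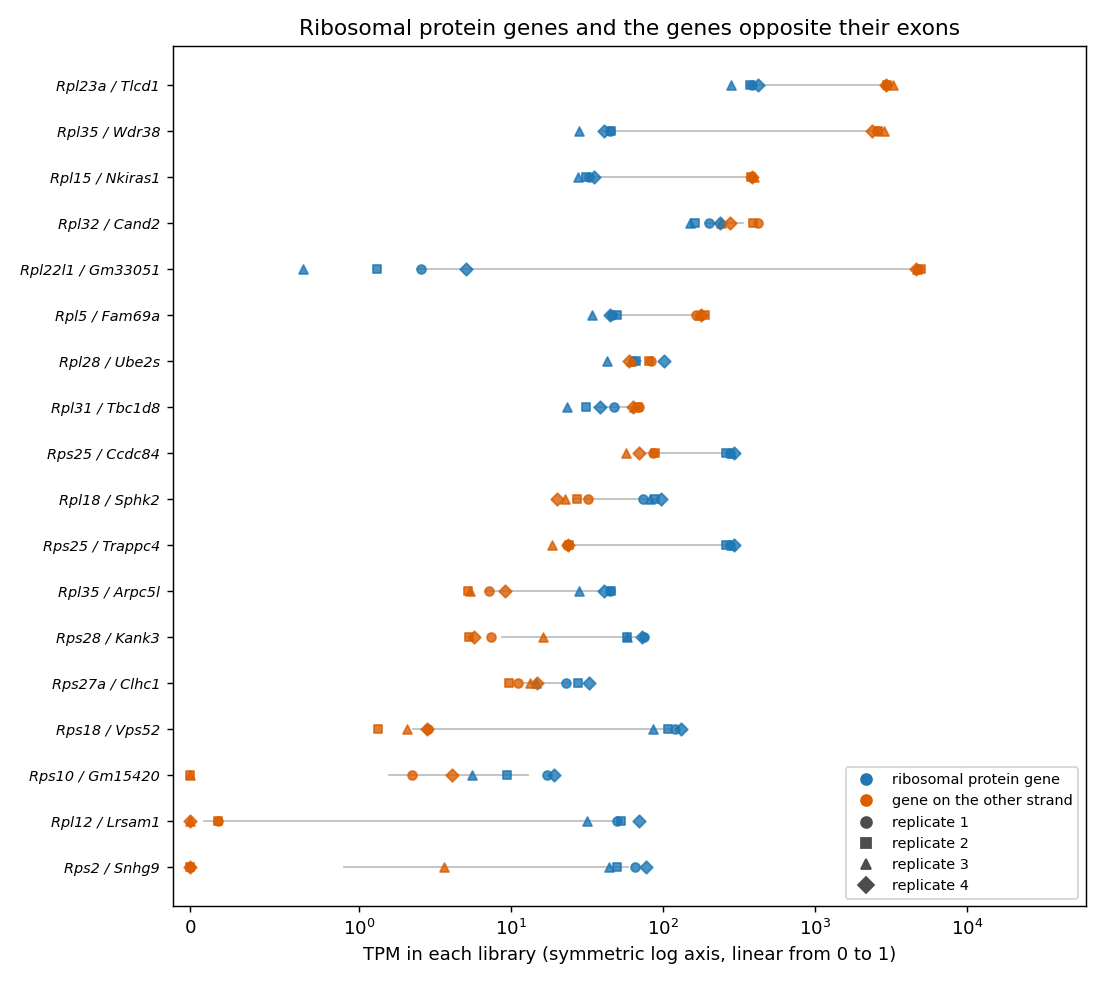
TPM of the ribosomal protein gene (blue) and its partner (orange) of 18 pairs in the 4 libraries, on a symmetric log axis that is linear from 0 to 1, with marker shapes for replicates 1 to 4 and a line joining the means. Pairs are ordered by the mean count of the partner. In all pairs drawn but Rpl28/Ube2s and Rps27a/Clhc1, the 4 values of the partner lie wholly to one side of the 4 values of the gene.

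Among large subunit genes, Rpl23a, whose protein sits at the exit of the peptide tunnel, had 381, 366, 354 and 458 counts in replicates 1 to 4. Tlcd1, which encodes a membrane protein of the TLC domain family and overlaps Rpl23a by 506 bases, had 17228, 17046, 24354 and 18713. The partner was higher in every library, by a log2 difference per kilobase of 3.06 ± 0.19 (SE, edgeR adjusted p = 3.14e-13). Tlcd1 also lies opposite the small nucleolar RNA genes Snord42a and Snord4a. Rpl35, another protein at the tunnel exit, had 65, 65, 52 and 65 counts and faced 2 partners. Wdr38, a WD repeat gene whose span encloses Rpl35, had 8625, 8523, 12161 and 8683 counts, a log2 difference of 6.04 ± 0.21 (SE, edgeR adjusted p = 7.10e-18). Arpc5l, which encodes a subunit of the actin-nucleating Arp2/3 complex and overlaps the start of Rpl35 by 62 bases, had 38, 27, 36 and 53. Thus 1 ribosomal protein gene was below the partner with 821 shared bases and above the partner with 62, the latter by -2.55 ± 0.27 (log2 partner over gene, SE, edgeR adjusted p = 6.79e-09).

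The antisense gene Gm33051 showed the widest ratio among pairs with more than 3 counts in each gene. Rpl22l1, the paralog of Rpl22, had 6, 3, 2 and 13 counts, while Gm33051 had 1525, 1579, 1908 and 1617 over an exon length of 274 bases. The log2 difference per kilobase was 10.92 ± 0.28 (SE, edgeR adjusted p = 4.19e-20), and 58.0% of Gm33051 faces Rpl22l1. Rpl15 had 92, 86, 99 and 108 counts and Nkiras1, a Ras-like inhibitor of NF-kappa-B signalling, had 2437, 2365, 3228 and 2675. That difference was 3.61 ± 0.16 (SE, edgeR adjusted p = 6.40e-16), although the 2 genes share only 105 exon bases at their starts. None of those bases lie in the principal annotated transcript of Rpl15, and Nkiras1 also lies opposite Ube2e1. Nkiras1 was the only partner at a 5′ end with more counts than its gene in all 4 libraries.

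Rpl5, which carries 5S ribosomal RNA into the large subunit, had 210, 226, 201 and 226 counts against 555, 628, 749 and 656 for Fam69a, which covers 953 bases of it. The log2 difference per kilobase was 2.02 ± 0.15 (SE, edgeR adjusted p = 6.04e-12). For Rpl31, counts were 93, 60, 58 and 82 against 425, 416, 502 and 424 for Tbc1d8, a gene of the TBC domain family, with a difference of 0.95 ± 0.17 (SE, edgeR adjusted p = 2.45e-05). Both partners were above their gene in every library. For Rpl32 the counts were 227, 179, 217 and 292, and Cand2, a cullin regulator that overlaps it by 53 bases, had 2696, 2478, 1984 and 1945. Cand2 was higher in replicates 1 and 2 than in 3 and 4, and the difference from Rpl32 per kilobase was 0.81 ± 0.17 (SE, edgeR adjusted p = 8.81e-05).

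Rpl28/Ube2s was the 1 pair in which neither gene was called higher. It had 136, 141, 117 and 239 counts, and Ube2s, the ubiquitin-conjugating enzyme of the anaphase-promoting complex, had 499, 476, 476 and 397. Per kilobase, Ube2s was higher in 3 of 4 libraries, with a log2 difference of 0.10 ± 0.18 (SE, edgeR adjusted p = 0.590). Without replicate 4, in which Rpl28 was highest, the difference was 0.40 (edgeR adjusted p = 0.0289), and without replicate 3, in which it was lowest, it was -0.044 (edgeR adjusted p = 0.828).

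The other 2 large subunit genes were above their partners. Rpl18 had 347, 416, 493 and 501 counts, and Sphk2, the gene of a sphingosine kinase, had 157, 131, 141 and 108 over a shared 373 bases at the starts. The difference was -1.74 ± 0.17 (log2 partner over gene, SE, edgeR adjusted p = 1.49e-09). Rpl12 had 209, 219, 170 and 323 counts, and Lrsam1, a ubiquitin ligase gene, had 1, 1, 0 and 0, too few for a ratio to be given. Both partners were below their gene in every library.

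The small subunit genes Rps25, Rps28, Rps27a, Rps18, Rps10 and Rps2 were all higher per kilobase than their partners. Rps25 had the most counts of the 17 genes, at 870, 803, 1124 and 1006, and it faced Ccdc84 at its end and Trappc4 at its start. Ccdc84 had 420, 424, 357 and 372 counts, a difference of -1.89 ± 0.15 (log2 partner over gene, SE, edgeR adjusted p = 3.96e-11). Trappc4, which encodes a subunit of the TRAPP tethering complex, had 67, 68, 68 and 74 (-3.63 ± 0.16, SE, edgeR adjusted p = 4.81e-16), although it shares 462 bases with Rps25, against 206 for Ccdc84.

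Rps28 had 128, 98, 127 and 136 counts and Kank3 had 27, 19, 76 and 23, so the partner stood highest in replicate 3 but stayed below the gene in each library (-2.98 ± 0.29, log2 partner over gene, SE, edgeR adjusted p = 1.23e-09). For Rps27a, which encodes a fusion of ubiquitin and a ribosomal protein, counts were 53, 63, 43 and 83, against 29, 25, 44 and 42 for Clhc1. These were the closest called pair of the small subunit, at -0.95 ± 0.28 (SE, edgeR adjusted p = 0.00334), and Clhc1 had 1 count more than Rps27a in replicate 3, though fewer per kilobase. In TPM the 2 genes overlapped across libraries. Rps18, with 349, 309, 319 and 418 counts, faced Vps52, which encodes a subunit of the GARP tethering complex and had 13, 6, 12 and 14 (-5.58 ± 0.22, SE, edgeR adjusted p = 9.07e-17). The partners of Rps10 and Rps2 were at or near 0. The antisense gene Gm15420 had 1, 0, 0 and 2 counts against 39, 21, 16 and 48 for Rps10, and Snhg9, a small nucleolar RNA host gene inside Rps2, had 1 count, in replicate 3, against 140, 105, 121 and 181 for Rps2. For these 2 pairs and Rpl12/Lrsam1 the gene was called higher by edgeR, and no ratio is given because the partner had 3 counts or fewer in all.

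The way the 2 genes overlapped went with the level of the partner. In 9 pairs the 3′ ends overlapped, and the partner had more counts than the gene in all 4 libraries in 7 of them, with a median partner count of 647 per library. In 8 pairs the 5′ ends overlapped, and the partner had more counts in all 4 libraries in 1 and fewer in all 4 in 6, with a median of 36.75. The groups overlapped, from 36.25 counts for Kank3 upward at 3′ ends and from 0.5 to 2676 at 5′ ends. In the 4 pairs whose partner faced coding bases, mean partner counts were 1657 or more, and in the other 15 they ran from 0.25 to 2676, with medians of 14417 and 69.25. Across the 19 pairs, Spearman's rho with the mean partner count was 0.65 for coding bases faced, which were 0 in 15 pairs. It was 0.49 for shared exon bases and 0.37 for shared bases within the principal annotated transcript of the gene. For partner length it was 0.24, and for the TPM of the ribosomal protein gene 0.14. These are descriptions over 19 pairs that share the same 4 libraries and in part the same gene, and no test was made.

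**Figure D3:**
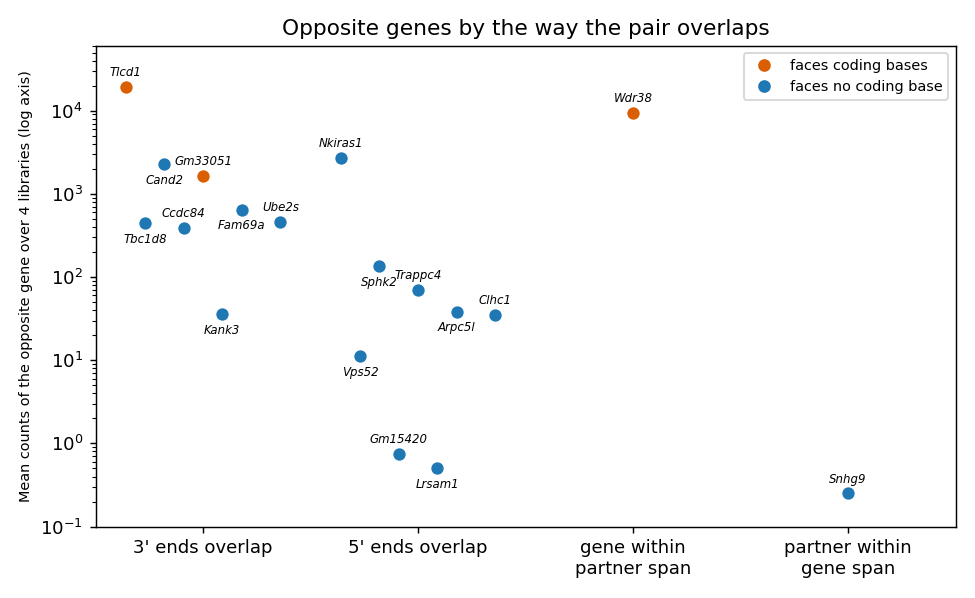
Mean count of 18 of the partners over the 4 libraries (log axis) by the way the pair overlaps, with partners that face protein-coding bases in orange and the others in blue. Sideways position within a column carries no value. The orange points (Gm33051, Wdr38 and Tlcd1) lie at 1657, 9498 and 19335 counts, and 3′ pairs reach lower than some 5′ pairs (Kank3 at 36.25, Nkiras1 at 2676).

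Ribosomal protein genes had a median of 58.7 TPM in the small subunit and 39.2 TPM in the large, against 0.128 TPM over all 21764 protein-coding genes. These levels and those below are of the strand counted, and whether it is the strand of the transcripts was not tested. The highest genes without an opposite exon were Rpl36 at 519 ± 177 TPM, Rps24 at 393 ± 127, Rpl4 at 309 ± 70.9, Rps15 at 254 ± 59.3, Rpl17 at 198 ± 54.9 and Rpl41 at 191 ± 53.9 (SD, n = 4). Rpl36, with 215, 174, 283 and 402 counts over 404 bases, was highest in replicate 4. Rpl4, whose protein lines the peptide tunnel, had 690, 676, 719 and 1050 counts. The values of each of these genes overlapped those of the next in order. The order over all 84 genes was alike between libraries, with Spearman's rho from 0.97 to 0.98 over the pairs of libraries.

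At the low end, 5 genes had fewer than 15 counts in the 4 libraries together. Rpl24 had 3, 1, 2 and 1 counts and shares 47.0% of its exon length with Gm28037 on the same strand. Rpl13a had 4, 4, 2 and 4 counts and shares 35.4% with Gm45713, Mir5121 and Snord33. In all, 26 ribosomal protein genes share exon bases with another gene on the same strand, mostly small nucleolar RNA genes, and the recorded options do not let a read pair count for more than 1 gene. Ribosomal protein genes also have many near-identical processed copies in the genome, so their counts are uncertain, and how many reads were lost to either was not measured.

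**Figure D4:**
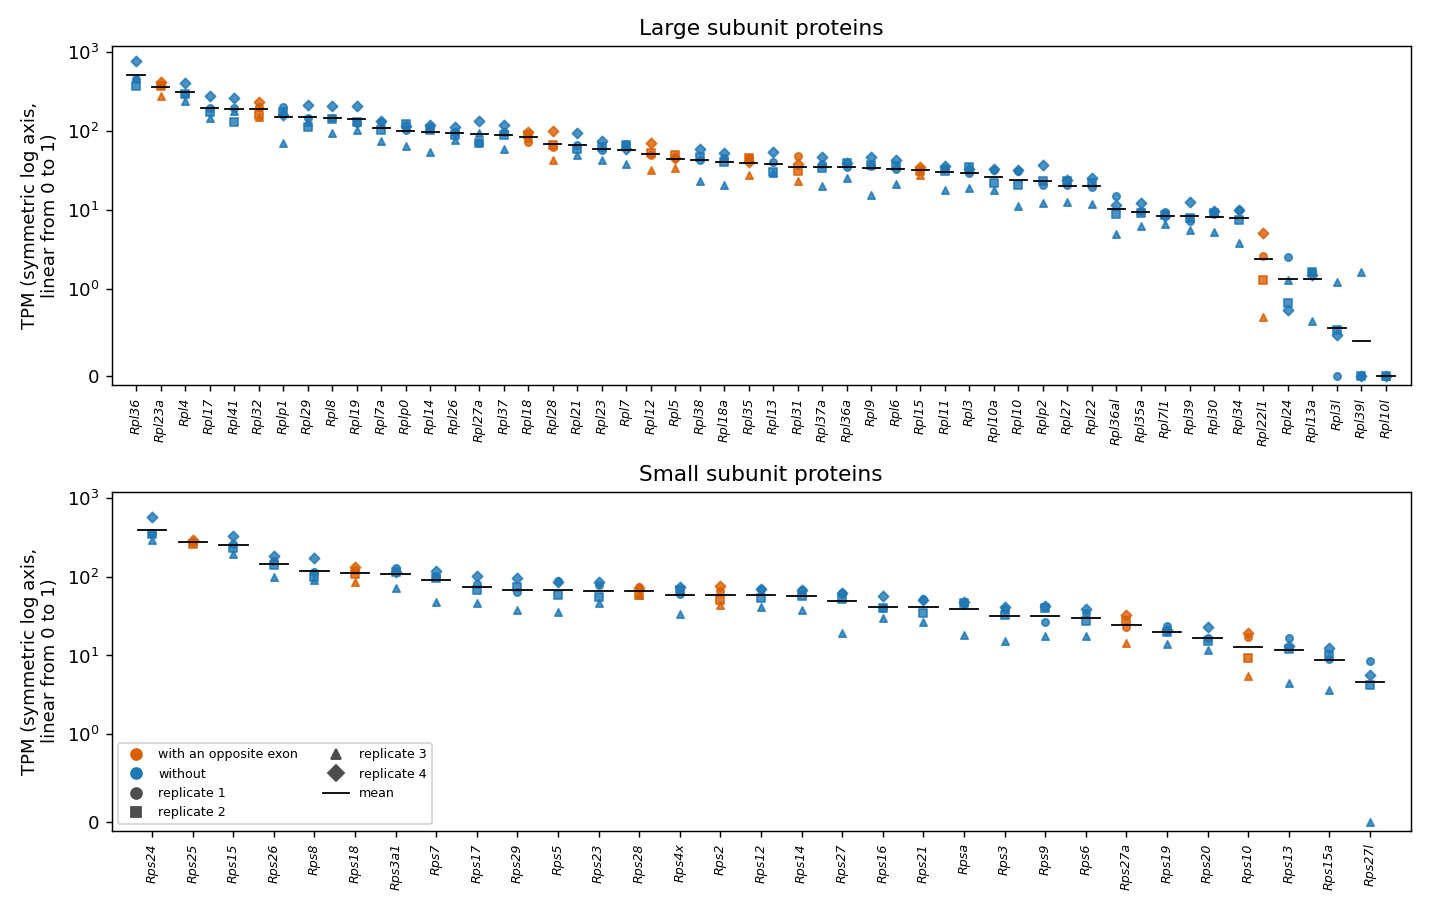
TPM of the 52 large subunit genes (top) and 31 of the small subunit genes (bottom) in the 4 libraries, on a symmetric log axis that is linear from 0 to 1, ordered by the mean, which is drawn as a bar. Orange marks genes with an opposite exon and marker shapes the replicates. Replicate 3 (triangles) lies lowest for most genes, and Rpl24, Rpl13a, Rpl3l, Rpl39l and Rpl10l end the large subunit row.

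Genes that encode variant copies of a ribosomal protein were below the common form wherever both could be compared. Rpl7 exceeded Rpl7l1 by 2.78 ± 0.19 and Rpl22 exceeded Rpl22l1 by 3.37 ± 0.89 on the log2 TPM scale (SD, n = 4). Rpl36a exceeded Rpl36al by 1.87 ± 0.51 (SD, n = 4). Each of these 3 differences had the same direction in all 4 libraries. Rpl22l1 lies opposite Gm33051, while Rpl22 and the other genes compared in this paragraph have no opposite exon. The order in every comparison of a variant with its common form rests on the strand counted, which was not tested. The variant genes Rpl3l, known from muscle, Rpl39l, known from testis, and Rps27l had 5, 2 and 18 counts in all, against 455, 60 and 250 for Rpl3, Rpl39 and Rps27. Rpl10l, known from testis, had no count in any library, while Rpl10 had 74, 49, 34 and 84. Rpl26, which the symbol rule also named, was at 93.3 ± 14.3 TPM (SD, n = 4).

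Genes with an opposite exon were on average higher than those without. The difference of mean log2(TPM + 1) was 0.56, 0.54, 0.67 and 0.53 in replicates 1 to 4, a mean of 0.57 ± 0.07 (SD, n = 4), and adding 1 makes the differences of low genes appear smaller. The same exact sign-flip permutation test again gave 2 of 16 patterns, the fewest that 4 libraries allow. The groups overlapped widely, from 2.42 to 365 TPM among the 17 genes and from 0 to 519 TPM among the 67. The medians were 59.2 and 40.9 TPM. Among genes with a mean of 1 TPM or more the difference was 0.35. Over all protein-coding genes the medians were 1.5 TPM with an opposite exon and 0 without, the same order.

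Between libraries, most ribosomal protein genes were lowest in replicate 3. Those without an opposite exon held 0.486, 0.436, 0.315 and 0.603% of the counts in replicates 1 to 4 (95% Wilson intervals 0.476 to 0.497, 0.426 to 0.446, 0.308 to 0.323 and 0.592 to 0.614%). Replicate 3 was lowest and replicate 4 highest, with no overlap of the intervals. Of the 63 with counts in every library, 58 were lowest in replicate 3 in TPM and 49 were highest in replicate 4, and among all 5355 such protein-coding genes without an opposite exon 53.3% and 46.8% were. Of the 17 with an opposite exon, 15 were lowest in replicate 3, and of 16 partners with counts in every library, 3 were, against 43.6% of the 3131 protein-coding genes with an opposite exon and counts in every library. These sets differ in level. Medians in replicate 1 were 51.8 TPM for the 63 genes and 1.77 TPM for the 5355. They were 63.3 TPM for the 17 genes, 84.9 TPM for the 16 partners and 5.88 TPM for the 3131. Low counts make the order of libraries less certain, and the part of this in the gaps was not tested. In bulk RNA, fewer cells of a type and less RNA per cell cannot be told apart.

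All genes without an opposite exon followed the same order of libraries, with 8.31, 7.75, 6.70 and 9.93% of the counts. Within those counts, the ribosomal protein share was 5.85, 5.62, 4.71 and 6.07%, lowest in replicate 3 and highest in replicate 4 again. The ribosomal RNA gene CT010467.1 took 1.29, 5.05, 9.40 and 1.62% of the counts, highest in replicate 3, and its part in the result was not tested. Of the 63 genes, the other 5 were Rpl36, Rpl29, Rpl41 and Rpl27a, lowest in replicate 2, and Rpl24, lowest in replicate 4. With an opposite exon, Rps25 was lowest in replicate 2 and Rpl18 in replicate 1. Rpl27a had 231, 226, 391 and 475 counts, while Rplp1, an acidic protein of the ribosomal stalk, had 117, 100, 53 and 103.

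**Figure D5:**
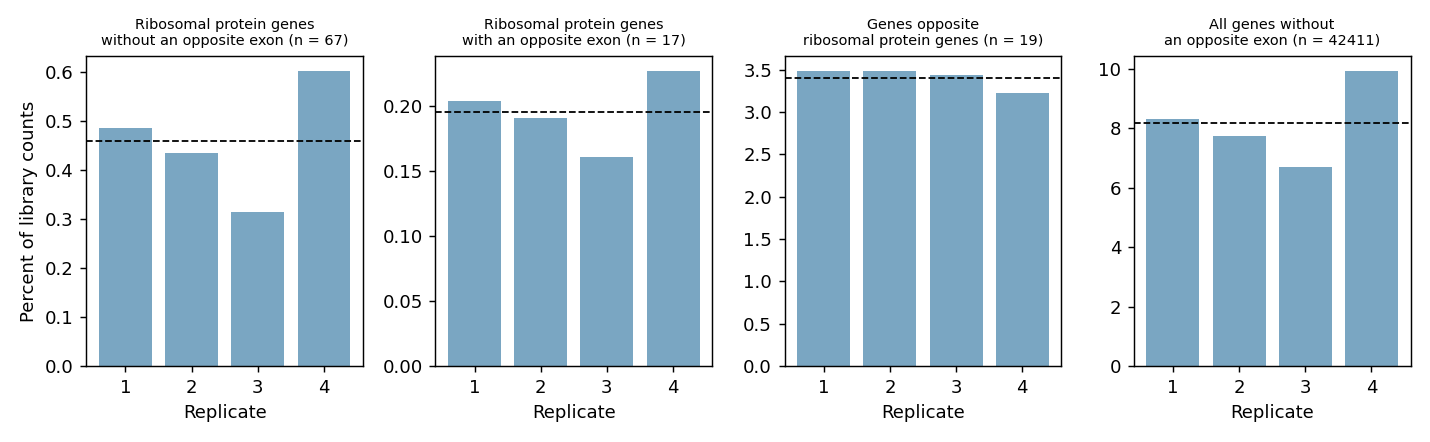
Percent of each library's counts held by ribosomal protein genes without an opposite exon, by those with one, by their partners and by all genes without an opposite exon, as bars for replicates 1 to 4 with the mean as a dashed line. Each panel has its own axis, from 0. Replicate 3 is lowest and replicate 4 highest in every panel but that of the partners, which lies between 3.22 and 3.49%.

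No single ribosomal protein gene passed the test of variation between replicates. In that edgeR test, the spread of each gene was set against genes of like abundance after TMM scaling, and 22 of 4918 genes tested, 0.447%, passed at an adjusted p of 0.05. Of the 75 ribosomal protein genes that passed the count filter, 0 passed in edgeR and 0 in limma, and 23 had an unadjusted edgeR p under 0.05, or 30.7%, against 5.71% of all genes. Their median ratio of spread to that of like genes was 1.96, against 0.795 over all genes. The 3 with the smallest adjusted p were all low in replicate 3. They were Rps3, at the entry of the messenger RNA channel, with 204, 168, 102 and 235 counts (edgeR adjusted p = 0.233), Rpsa, with 167, 168, 86 and 195 (0.251), and Rpl9, with 129, 133, 71 and 183 (0.302). Among 15 partners tested, Cand2 passed (edgeR adjusted p = 0.0462). It did not pass with library totals, with no count filter, in limma or without any 1 of the 4 replicates, where the adjusted p ran from 0.0650 to 0.939.

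Other genes of ribosome production and translation were counted in every library. Of these 52 genes, 39 passed the count filter. Among the 39, 0 passed the variation test in edgeR and 0 in limma, against 0.447% of all genes in edgeR. An unadjusted edgeR p under 0.05 was reached by 11 of the 39, against 5.71% of all genes. All 25 genes of ribosomal RNA processing and assembly had counts in all 4 libraries, led by Npm1, a nucleolar chaperone, at 362 ± 87.4 TPM and Bysl, a small subunit assembly factor that lies opposite Ccnd3, at 294 ± 33.7 (SD, n = 4). The 11 genes of RNA polymerase I, the enzyme that makes ribosomal RNA, and of the factors that work with it were lower, led by Ubtf at 14.2 ± 2.37 and Polr1c at 11 ± 1.27 TPM (SD, n = 4). Of 13 genes for translation factors and related proteins whose messenger RNAs carry a pyrimidine tract, Eef1a1 was at 412 ± 106 and Eef2 at 86.7 ± 26.9 TPM (SD, n = 4). Eef1a1 had 1349, 1291, 947 and 1533 counts, lowest in replicate 3 and highest in replicate 4. The summed TPM of the 13 was 927, 894, 535 and 1040, in the order seen for the ribosomal proteins. Of the ribosomal proteins that carry other names, Fau was at 92.5 ± 27.8 TPM and Rack1 at 25 ± 8.46 (SD, n = 4).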

How the data were processed

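The authors deposited 1 table per library of raw counts, the number of read pairs assigned to each gene. Per the file headers, featureCounts 1.4.6-p4 was run with strand option 1 against GENCODE M13 on build mm10. The name of the aligned file holds "star2", and the aligner is otherwise not given in the sources used here. Symbols, gene types and coding parts came from GENCODE M21 on the same build, matched by identifier for 99.6% of genes. Exon overlaps of 1 base or more on opposite strands were found with bedtools 2.31.1 from the tables' coordinates, and TPM was computed from counts and deposited lengths.

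The members, lists and tests were chosen with earlier results of these data known. Pairs were tested with edgeR 4.0.16 (library as a block, offset of library total times gene length, Benjamini-Hochberg over all pairs with 40 or more summed counts). Variation between replicates was tested as the one-sided upper tail of the quasi-dispersion over its trended prior, with TMM, filterByExpr and 3 residual degrees of freedom. Both were tested on simulated data. Alternatives used limma 3.58.1, DESeq2 1.42.0, other scalings, filters and overlaps, and left out each replicate (R 4.3.3, Python 3.11.15, scipy 1.17.1). Named genes were up to 20 pairs by partner count, which took in all 19 pairs (18 are described), every pair with the gene higher, the 6 highest ribosomal protein genes without an opposite exon, those passing the variation test, paralogs by symbol, the 2 highest genes of each list and genes with no count. Other genes named, such as Rps3, Rpsa, Rpl9, Rpl24, Rpl13a, Rpl27a and Rplp1, were chosen after their values were seen. Of the members and lists, 2 genes and 1 pair are not reported here, though counts and sums over groups include them.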

Additional observations from a re-analysis of the deposited data

Results flagged for a closer look

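In 6 of the 108 levels and summary values checked, 1 of the 4 libraries stood apart, with a gap to the next value, as a share of the whole range, above Dixon's 95% critical value. Chance flags about 1 in 20 such sets. Tlcd1, opposite Rpl23a, had 2946, 2954, 3254 and 2913 TPM in replicates 1 to 4, and replicate 3 stood apart above the others (gap 0.880 of the range). Trappc4, opposite Rps25, had 23.5, 24.1, 18.6 and 23.6 TPM, and replicate 3 stood apart below (0.880). Rpsa had 45.1, 46.0, 18.2 and 48.0 TPM, with replicate 3 below (0.905). Rpl13a had 1.62, 1.64, 0.633 and 1.48 TPM from 4, 4, 2 and 4 counts, with replicate 3 below (0.8345). Rpl39l and Snhg9 had counts in replicate 3 only, 2 and 1 of them, which sets the gap at 1 times the range in both.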

How the results depend on the processing

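The summed ratio of partners to genes and the difference between genes with and without an opposite exon kept their direction under every alternative run, from 4.13 (raw counts) to 5.02 (overlaps of 100 bases or more) and from 0.35 (mean TPM of 1 or more) to 0.77 (CPM), and 4 libraries could not reach 0.05 in any of them. With protein-coding counts as the total, the shares were 0.364% for genes with an opposite exon, 0.852% for those without and 6.37% for partners. With overlaps of 100 bases or more, genes with an opposite exon held 0.155% and partners 3.28%, and 13 pairs remained in the test, of which the gene was higher in 5 and the partner in 7. The number of partners higher was 9 without length scaling, and 8 to 9 when each replicate was left out. Rpl28/Ube2s was -0.044 without replicate 3, 0.40 without replicate 4 and 1.58 without length scaling, on the log2 scale. The number of partners that varied between replicates was 1 with DESeq2 size factors and 0 with library totals, 0 with no count filter, 0 in limma and from 0 to 0 when each replicate was left out, and the cause was not tested. Ribosomal protein genes called were 0 in all of these. With 1 group, no pairing of replicates between groups could be made, and the pair and ratio tests are already within libraries. Depth limits the genes with few counts, Rpl22l1, Rpl24, Rpl13a and the partners Gm15420, Lrsam1 and Snhg9 among them.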
